A study of Mus musculus with 6 samples.

Results

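Erythroblastic island macrophages are the cells around which red cell precursors mature in the bone marrow. They hold erythroblasts through adhesion receptors, clear expelled nuclei and spent red cells, and recycle heme iron. Levels of 9 genes known from these macrophages were followed in erythroid progenitors sorted from the marrow of mice with and without the repressor Bcl11a. The genes were Adgre1, Vcam1, Cd163, Mrc1, C1qa, C1qb, C1qc, Cd5l and Spic, and their probe sets were found by gene symbol. All 14 probe sets that the array annotation gives to 1 of these symbols alone were used, of 45037 probe sets in all. The 34945 probe sets with 1 symbol read 18193 genes. No probe set with several symbols named any of them.

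The knockout group held 3 female mice of genotype Bcl11a fl/fl EpoR-Cre+, in which both copies of Bcl11a are flanked by recombination sites and the Cre recombinase is driven from the erythropoietin receptor gene. The control group held 3 female mice of genotype Bcl11a +/+, for which the labels name no Cre. What Cre or the receptor allele that carries it does on its own cannot be told apart from the loss of Bcl11a. All 6 mice were 6 weeks old, each gave 1 Affymetrix array, and cells were sorted as positive for CD71, the transferrin receptor, and for Ter119, a red cell surface antigen. The values are intensities on a linear scale, and changes are knockout minus control on log2(intensity + 16), a scale that understates the change of dim probe sets. A change was called where its adjusted p over all 45037 probe sets (limma, Benjamini-Hochberg) was under 0.05.

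Array medians lay between 67.5 and 70.9, and array maxima between 38113 and 40360. Bcl11a was read by 7 probe sets, of which none passed the test, with 1 higher and 2 lower in the knockouts at an unadjusted p under 0.05 and log2 changes between -0.40 and 0.32. No label says which of these probes lie in the deleted part, so they check nothing about the genotype. Erythroid markers were bright in all mice. By mean intensity over the 6 arrays, the 7 measured stood at percentile 88.7 or above among all probe sets. The lowest on any array was Epor at percentile 86.0. Neutrophil markers were also bright, the 9 measured standing at percentile 97.3 or above by mean intensity, so transcripts of other marrow cells were present in the sort.

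The macrophage genes did not differ between knockout and control mice beyond the spread between mice. None of the 14 probe sets passed the test, against 0.147% of all probe sets, and none had an unadjusted p under 0.05, against 12.4% of all probe sets. The groups overlapped in all 14, while they did not overlap in 19.5% of all probe sets. The median log2 change was -0.05 over the brightest probe set of each of the 9 genes, with 4 above 0 and 5 below (50.2% of all genes lay below), beside a median of -0.01 over all probe sets. In the sorted population as a whole, fewer cells of a type and less RNA per cell cannot be told apart.

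All 14 probe sets of the 9 genes lay above the level of transcripts that female cells lack. Uty, Kdm5d and Eif2s3y lie on the Y chromosome, and their 9 probe sets averaged between 8.07 and 30.7, and their highest value on any array was 44.3. The lowest value of any of the 14 macrophage probe sets was 61.7, in the dimmer Spic probe set. The dimmest Vcam1 probe set came down to 66.5, so these 2 were not far above the Y-linked ones. By mean intensity, the brightest probe sets stood between percentile 61.8 for Spic and percentile 90.4 for Vcam1 of all probe sets. Intensities of different probe sets do not rank the amounts of RNA.

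**Figure D1:**
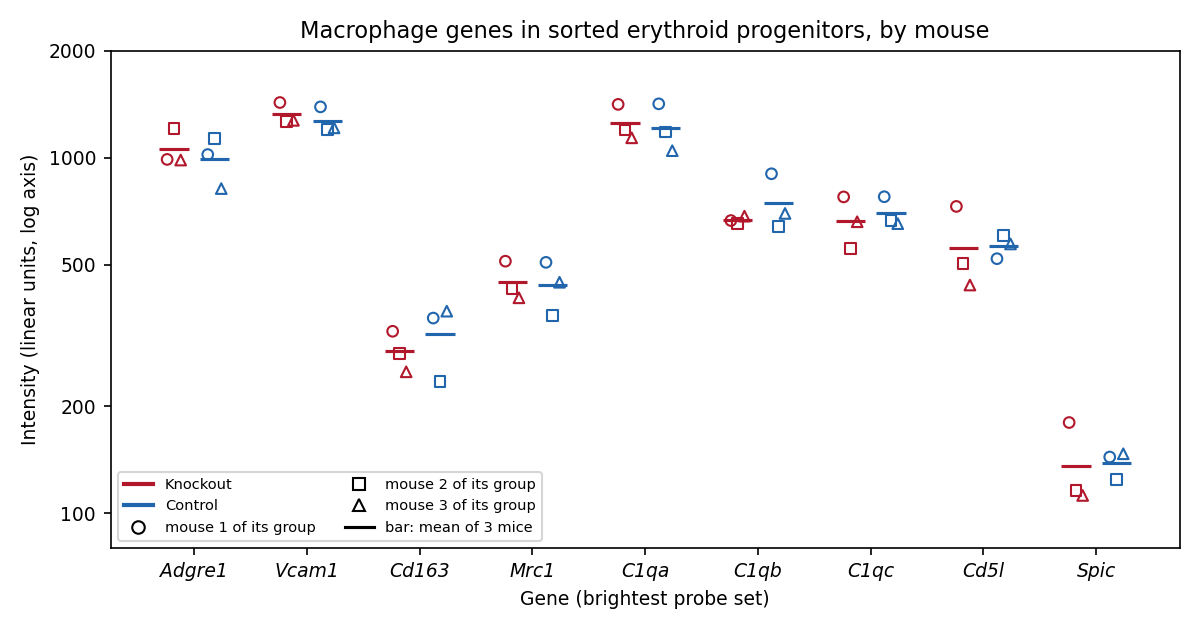
Intensity on a log axis of the brightest probe set of each of the 9 genes in 3 knockout mice (red, left) and 3 control mice (blue, right), with bars at group means. The groups overlap for every gene, from Spic at means of 136 and 139 to Vcam1 at means of 1324 and 1269.

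Among the surface receptors, Adgre1 encodes F4/80, the adhesion G protein-coupled receptor by which mouse macrophages are commonly recognised. It had intensities of 989.6, 1209 and 985 in the knockout mice, against 1021, 1135 and 819 in the control mice. Knockout mouse 2 was the highest and control mouse 3 the lowest, and the other 4 values lay between them. Adgre1 had a log2 change of 0.10 ± 0.16 (limma SE, adjusted p = 0.842), with means of 1061 ± 128 in the knockouts and 992 ± 159.7 in the controls (SD, n = 3 each).

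Vcam1 encodes the adhesion molecule through which island macrophages bind the integrin alpha4 beta1 of erythroblasts. Its brightest probe set had 1430.3, 1267 and 1274 in the knockout mice, against 1391, 1202 and 1214 in the control mice. Mouse 1 was the highest of its group on both sides, and the groups interleaved. This probe set gave a log2 change of 0.06 ± 0.11 (limma SE, adjusted p = 0.873), with a residual SD of 0.11 that was the smallest among the 14 probe sets.

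The other Vcam1 probe sets read lower. One had 579.9, 567 and 575 in the knockout mice and 702, 552 and 574.5 in the control mice, a log2 change of -0.08 ± 0.12 (adjusted p = 0.844). In it control mouse 1 stood apart, while the 3 knockout mice differed by little. The dimmest had 95.6, 66.5 and 97.2 in the knockout mice and 81.7, 115 and 97.7 in the control mice, a log2 change of -0.16 ± 0.18 (adjusted p = 0.762). Over the 6 arrays the brighter pair correlated at r = 0.60, and the dimmest correlated with them at r = -0.29 and -0.33, so it did not follow the same differences between mice.

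Cd163 encodes the scavenger receptor that takes up hemoglobin bound to haptoglobin. It had 325, 281 and 250.1 in the knockout mice, against 354, 235 and 370.4 in the control mice. The control mice covered a wider range than the knockout mice, which all lay inside it. For Cd163 the log2 change was -0.14 ± 0.20 (SE, adjusted p = 0.825). Mrc1 encodes the mannose receptor CD206, an endocytic lectin of tissue macrophages. It had 512, 429 and 404 in the knockout mice, against 508, 359.7 and 447 in the control mice. Mouse 1 was again the highest on both sides and control mouse 2 the lowest. Mrc1 had a log2 change of 0.04 ± 0.16 (limma SE, adjusted p = 0.949), the smallest in size among the 9 genes.

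The secreted products include the 3 chains of C1q, the recognition molecule of the classical complement pathway, which tags dying cells for uptake. RefSeq places C1qa, C1qb and C1qc together on chromosome 4, with 0 other protein-coding genes starting between them. C1qa had 1413, 1198 and 1138 in the knockout mice, against 1418, 1182 and 1047 in the control mice. The groups overlapped along nearly their whole range, with mouse 1 the highest in each. C1qa had a log2 change of 0.04 ± 0.15 (limma SE, adjusted p = 0.936).

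C1qc had 776, 557 and 661 in the knockout mice, against 777, 665 and 653 in the control mice. Mouse 1 was once more the highest in each group, and knockout mouse 2 was the lowest of all. For C1qc the log2 change was -0.08 ± 0.15 (SE, adjusted p = 0.882). The brightest C1qb probe set had 666, 653 and 685 in the knockout mice, against 902, 641 and 697 in the control mice. Control mouse 1 alone stood high there, and the SD was 16.3 in the knockouts and 137 in the controls. The log2 change was -0.14 ± 0.15 (SE, adjusted p = 0.740).

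The probe sets of C1qb differed from each other in direction. The second had 752, 511 and 533 in the knockout mice and 551, 581 and 449 in the control mice, a log2 change of 0.17 ± 0.18 (adjusted p = 0.764). The third had 518, 288 and 363 in the knockout mice and 353, 479.5 and 289 in the control mice, a log2 change of 0.05 ± 0.26 (adjusted p = 0.960). In both of these knockout mouse 1 was high, which it was not in the brightest. They correlated with each other at r = 0.88 over the 6 arrays and with the brightest at r = -0.13 and -0.22. Both carry the x_at suffix by which Affymetrix marks probe sets whose probes may also match other transcripts.

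Cd5l encodes a secreted scavenger protein of tissue macrophages, also called AIM. It had 729.9, 505 and 439 in the knockout mice, against 520.3, 604 and 572 in the control mice. The control mice lay inside the range of the knockout mice, of which mouse 1 was the highest of all and mouse 3 the lowest. Cd5l had a log2 change of -0.05 ± 0.20 (limma SE, adjusted p = 0.946), with means of 558 ± 153 in the knockouts and 566 ± 42.4 in the controls (SD, n = 3 each).

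Spic encodes the transcription factor Spi-C, an Ets protein related to PU.1 that mouse red pulp macrophages of the spleen need and that heme induces. Its brighter probe set had 180.1, 116 and 112 in the knockout mice, against 144, 124.5 and 147 in the control mice. Knockout mouse 1 was the highest and the other knockout mice the lowest, with the controls between. The log2 change was -0.05 ± 0.19 (SE, adjusted p = 0.945). The dimmer probe set had 145, 61.7 and 115 in the knockout mice, against 145, 91.65 and 182 in the control mice. Its log2 change of -0.35 ± 0.33 (SE, adjusted p = 0.716) was the largest in size of the 14 and its residual SD of 0.50 the largest too. Both probe sets of Spic had changes below 0, and they correlated at r = 0.68 over the 6 arrays. The brighter carries the x_at suffix described for C1qb and the dimmer the s_at suffix, by which Affymetrix marks probes shared by several transcripts, so neither is sure to read Spic alone. The mean of both gave a log2 change of -0.20 (adjusted p = 0.771).

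**Figure D2:**
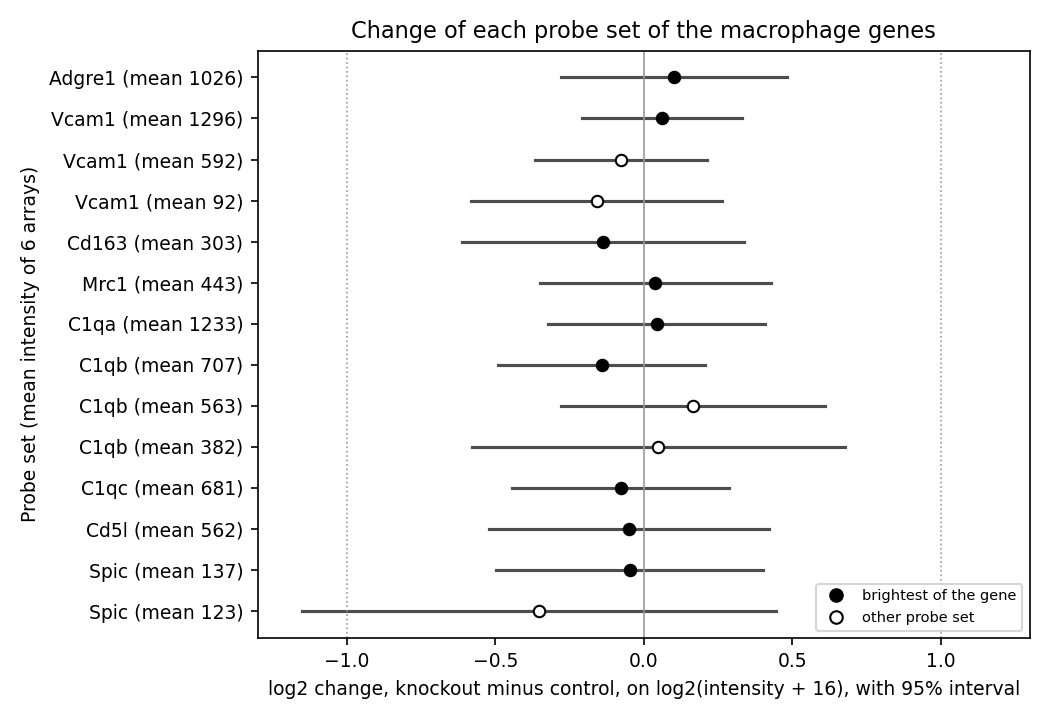
Log2 change (knockout minus control) with its 95% interval for the 14 probe sets, labelled by gene and mean intensity, with filled points for the brightest of each gene. Every interval spans 0, and that of the dimmer Spic probe set, from -1.15 to 0.45, alone reaches past a change of 1 in size (dotted lines).

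The intervals give the size of change that the 3 against 3 mice leave possible. For the brightest probe sets the 95% intervals reached at most from -0.61 (Cd163) to 0.48 (Adgre1) on the log2 scale. As ratios of knockout to control these bounds were 0.654 for Cd163 and 1.40 for Adgre1, and the narrowest interval, that of Vcam1, ran from 0.866 to 1.26. The exact two-sided permutation p lay between 0.4 and 0.9 for the 14 probe sets, in a design whose smallest possible p is 0.1. Summed over the brightest probe sets of the 9 genes, the intensity was 6395 ± 559 in the knockouts and 6384 ± 572 in the controls (SD, n = 3 each), a ratio of 1.00.

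Differences between mice within a group were more visible than those between the groups. Summed over the 9 genes, mouse 1 was the highest of its group on both sides, with 7023 in knockout mouse 1 against 6214 and 5949 in the other knockouts, and 7036 in control mouse 1 against 6148 and 5967 in the other controls. Knockout mouse 1 was the highest knockout for 7 of the 9 genes, all but Adgre1 and C1qb. Control mouse 1 was the highest control for 5 of the 9, namely Vcam1, Mrc1, C1qa, C1qb and C1qc. Over the 9802 genes with a mean intensity of at least 100, knockout mouse 1 was the highest knockout in 30% and control mouse 1 the highest control in 34.6%. This pattern was noticed in the data and was not tested, and same-numbered mice did not deviate together over all probe sets with a mean of at least 100 (r between -0.08 and 0.01).

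**Figure D3:**
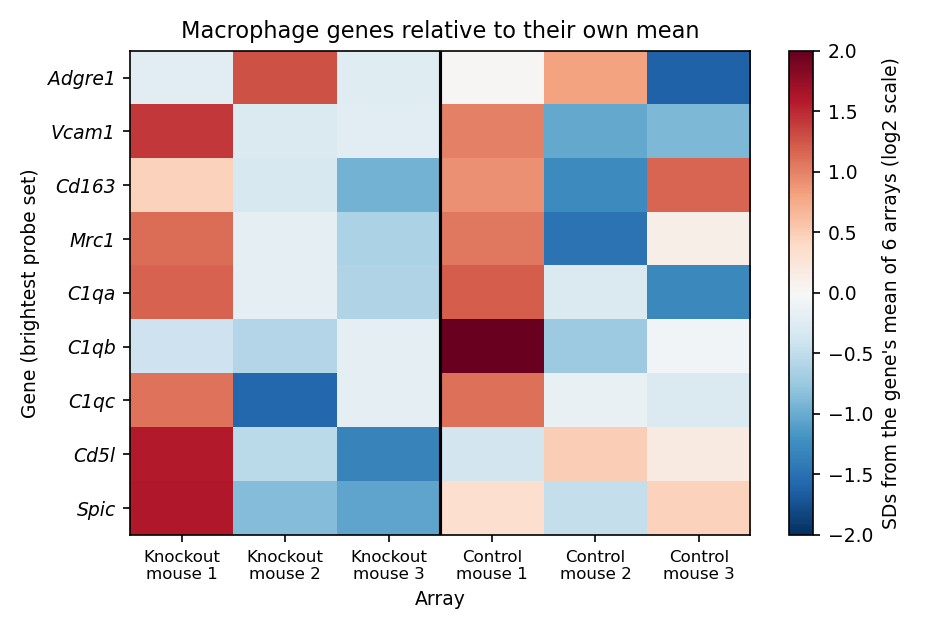
Level of the 9 genes (rows) on the 3 knockout and 3 control arrays (columns), in SDs from the gene's mean of 6 arrays on the log2 scale, red above and blue below. Mouse 1 is red for most genes in both groups, and Adgre1 departs from it with its highest levels in mouse 2 of each group.

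Most of the genes varied alike from mouse to mouse, with Adgre1 as the exception. Of the 36 pairs of the 9 genes, 29 had a correlation above 0 over the 6 arrays, with a median r of 0.47. Of the 8 pairs with Adgre1 only 2 lay above 0, and of the 28 pairs without it 27 did, with a median r of 0.56. Vcam1 and C1qa had the highest r, 0.90, and Adgre1 and Cd163 the lowest, -0.63. All pairs share the same 6 arrays, so these values describe the arrays and were not tested.

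By correlation with the mean profile of the 9 genes over the 6 arrays, the most similar of 9793 other genes with a mean intensity of at least 100 were D13Ertd608e (r = 0.999), Renbp (r = 0.99), Patl1 (r = 0.98), Tmem170b (r = 0.95), Mlst8 (r = 0.95) and Paqr7 (r = 0.94). Their rank correlations (Spearman) were lower, between 0.71 for Paqr7 and 0.94 for D13Ertd608e and Renbp. Being the highest of 9793 values over only 6 arrays, these r are high by selection and were not tested. Of 18 other macrophage genes at this level, 3 had r above 0.5, which was 16.7% beside 10.5% of all these genes. The median r was 0.18 over the 18 and -0.04 over all these genes, and the difference was not tested. The genes above 0.5 were Cd68, a lysosomal protein of phagocytes, at 0.83, Igf1, a growth factor, at 0.78 and Axl, an engulfment receptor, at 0.56. Pparg, a nuclear receptor of lipid metabolism, had the lowest value among the 18, at -0.80. Cx3cr1 at -0.63 and Ctss at -0.58 also lay far below 0.

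Spi-C and its relative PU.1 bind the PU box, whose core is GAGGAA. RefSeq's promoter table (GRCm38.p6) held windows for 6 of the 9 genes. The 250 bases before the start of transcription given there were searched for this core on both strands. For Cd163 and C1qc that start lay inside the gene as RefSeq places it, so part of their windows did too. The core was found for Mrc1, C1qb, C1qc and Cd5l, and not for Cd163 or Spic. Of all 32851 windows of that length in the table, 23.3% held it. The windows of C1qb and C1qc, neighbours that encode chains of 1 molecule, and of Mrc1, which held the most matches, are shown on the strand of the gene with the core or its reverse complement in capitals. These matches are letters in a sequence and not measured sites.
Mrc1, chr2:14229164-14229413, plus strand: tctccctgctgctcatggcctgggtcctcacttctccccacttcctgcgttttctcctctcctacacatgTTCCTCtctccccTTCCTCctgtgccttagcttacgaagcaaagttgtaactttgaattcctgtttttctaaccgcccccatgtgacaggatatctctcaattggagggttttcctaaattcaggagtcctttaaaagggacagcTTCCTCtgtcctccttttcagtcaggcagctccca
C1qb, chr4:136886201-136886450, minus strand: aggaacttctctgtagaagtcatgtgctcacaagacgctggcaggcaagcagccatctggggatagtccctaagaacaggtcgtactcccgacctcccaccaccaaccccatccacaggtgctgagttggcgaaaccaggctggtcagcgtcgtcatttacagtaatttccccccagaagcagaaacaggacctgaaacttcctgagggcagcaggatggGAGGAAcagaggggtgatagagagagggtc
C1qc, chr4:136892915-136893164, minus strand: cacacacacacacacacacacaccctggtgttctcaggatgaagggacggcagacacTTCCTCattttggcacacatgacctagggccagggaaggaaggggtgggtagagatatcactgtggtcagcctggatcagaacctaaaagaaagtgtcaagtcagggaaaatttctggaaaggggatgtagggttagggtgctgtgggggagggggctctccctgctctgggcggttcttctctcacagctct
The Mrc1 window held 3 matches, the first base of each lying 180, 167 and 35 bases before the start. The C1qb match began 30 bases before the start and the C1qc match 193 bases before it.

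Other macrophage genes did not pass either. Of 27 measured, none passed, beside 0.214% of all genes by their brightest probe set, and at an unadjusted p under 0.05 there were 3 higher and 2 lower in the knockouts, beside 8.2% and 4.54% of all genes. Lgmn, a lysosomal protease of macrophages and other cells, had 1160.2, 1062 and 1032 in the knockout mice, against 559, 638 and 499 in the control mice. Every knockout mouse lay above every control mouse, and the log2 change was 0.93 ± 0.12 (SE, adjusted p = 0.0808). Apoe, a lipid carrier that macrophages secrete, had 1417, 1684 and 1705 in the knockout mice, against 1106, 1184 and 1017 in the control mice, a log2 change of 0.53 ± 0.12 (adjusted p = 0.202). Csf1r, the receptor on which macrophages depend for growth and survival, had 4766, 4785 and 4679 in the knockout mice, against 3925, 3948 and 3819 in the control mice, a log2 change of 0.28 ± 0.09 (adjusted p = 0.304). For these genes too the groups did not overlap.

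Lgmn, Apoe and Csf1r passed when variances were moderated with an intensity trend and robustly (adjusted p = 0.000189, 0.00650 and 0.0203), a fit that called 1445 probe sets in all and none of the 14 above. Timd4, the phosphatidylserine receptor TIM-4, had 50.3, 45.9 and 54.6 in the knockout mice, against 69.1, 66.6 and 69.6 in the control mice, a log2 change of -0.35 ± 0.10 (adjusted p = 0.260). Siglec1, the sialoadhesin CD169 that is used to mark island macrophages, had 57.6, 51.8 and 54.7 in the knockout mice, against 40.8, 46.1 and 47.5 in the control mice. Its log2 change was 0.22 ± 0.10 (adjusted p = 0.438). Every knockout mouse lay below every control mouse for Timd4 and above for Siglec1. Of the 27 genes, 5 had such a gap upward and 2 downward, beside 12.4% and 9.22% of all genes. Timd4 and Siglec1 were dim, near the highest Y-linked value of 44.3, and control mouse 1 lay below it for Siglec1. The brightest genes of the list were Tyrobp, an adaptor of activating receptors, Ctss, a lysosomal protease, and Fcer1g, an Fc receptor chain, which other myeloid cells also express. Their log2 changes were -0.06, 0.14 and -0.07.

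The genes of contact and engulfment on both sides of the island gave a similar picture. Of 17 measured, none passed, and 1 was higher and 1 lower at an unadjusted p under 0.05, beside 8.2% and 4.54% of all genes. Itga4, the alpha4 integrin chain that binds Vcam1, had 4014, 4568 and 4547 in the knockout mice, against 4144, 3811 and 4174 in the control mice. The groups overlapped, and the log2 change was 0.11 ± 0.11 (SE, adjusted p = 0.716). Icam4, an erythroblast ligand of alpha v integrins, had 3105, 3461 and 4095 in the knockout mice, against 2724, 2068 and 2597 in the control mice, with no overlap. Its log2 change was 0.53 ± 0.16 (adjusted p = 0.287, and adjusted p = 0.0284 with the trend). Thbs1, thrombospondin, which bridges dying cells to phagocytes, had 570.2, 584 and 687 in the knockout mice, against 1034, 902 and 1150.2 in the control mice. It was lower in every knockout mouse, by a log2 change of -0.73 ± 0.14 (adjusted p = 0.146, and adjusted p = 0.00192 with the trend).

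Of 7 measured complement partners of C1q, none passed, and 1 was lower at an unadjusted p under 0.05, beside 4.54% of all genes. In 4 of them every knockout mouse lay below every control mouse, as in 9.22% of all genes. The list's median log2 change was -0.24, but 4 of its genes had mean intensities under 100. C1s1, the serine protease that works with C1q, was among them, with 3.05, 1.41 and 6.01 in the knockout mice and 9.68, 6.80 and 26.2 in the control mice, all within the range of the Y-linked probe sets or below it. Cd93, a surface glycoprotein once described as a C1q receptor and found on progenitors and other marrow cells, had 1641, 1779 and 1217 in the knockout mice, against 1990.1, 2267 and 2460 in the control mice. It was lower in every knockout mouse, by a log2 change of -0.54 ± 0.17 (limma SE, adjusted p = 0.304, and adjusted p = 0.0425 with the trend).

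The relatives of Spic and the genes of heme and iron recycling were bright, and of 13 measured none passed. With an unadjusted p under 0.05 there were 2 higher and 1 lower, beside 8.2% and 4.54% of all genes. Spi1, which encodes PU.1, had 721, 753 and 685 in the knockout mice, against 824, 877 and 837 in the control mice, a log2 change of -0.23 ± 0.10 (limma SE, adjusted p = 0.405). Bach1, the heme-sensing repressor that represses Spic in the mouse, had 1964, 2079 and 2116 in the knockout mice, against 1656, 1558.5 and 1498 in the control mice. Every knockout mouse lay above every control mouse, and the log2 change was 0.38 ± 0.10 (adjusted p = 0.228, and adjusted p = 0.0121 with the trend). Bach1 is also an erythroid gene, and whether its level came from macrophages was not tested. Irf4, a partner of PU.1 in B cells and macrophages, had 701, 848 and 494 in the knockout mice, against 1111, 1108 and 1132 in the control mice, a log2 change of -0.73 ± 0.20 (adjusted p = 0.242, and adjusted p = 0.0238 with the trend). Slc40a1, the iron exporter ferroportin and a known target of Spi-C in mouse macrophages, had 3359.6, 3226 and 3667 in the knockout mice, against 3579, 2795 and 3155 in the control mice. The groups overlapped, and the log2 change was 0.11 ± 0.13 (adjusted p = 0.773). Whether the level of Slc40a1 came from macrophages, or was tied to that of Spic, was not tested.

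None of 69 markers passed, counting the 7 of erythroid cells with those of other marrow cells. At an unadjusted p under 0.05, 4 were higher and 9 lower in the knockouts, beside 8.2% and 4.54% of all genes. All 4 that were higher were erythroid markers, and all 9 that were lower were markers of other cells. With the intensity trend, which called 1445 of 45037 probe sets, 7 markers passed, 3 higher and 4 lower. The 3 higher were the erythroid Tfrc, Epb42 and Gata1. The 4 lower were Vpreb1, Vpreb3 and Igll1 of pre-B cells and Mcpt8 of basophils. The 9 measured pre-B cell markers all had changes below 0, with a median of -0.37, and their summed intensity lay between 11160 and 15100.0 in the knockouts and between 16076 and 18911 in the controls. Igll1, a part of the surrogate light chain, had 994, 595 and 593 in the knockout mice, against 1528, 2091 and 1730.3 in the control mice, a log2 change of -1.31 ± 0.23 (limma SE, adjusted p = 0.136). This probe set carries the x_at suffix described for C1qb. The 9 neutrophil markers summed to between 187078 and 195959 in the knockouts and to between 202606 and 204420 in the controls, with a median change of -0.08. The largest term of that sum, S100a8, was the brightest probe set on all 6 arrays, and whether the scale is still linear at its top was not tested. The 7 erythroid markers had a median change of 0.38 and 5 of them had every knockout mouse above every control mouse, as did 12.4% of all genes.

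Other markers were those of cells that share genes with island macrophages. The 8 monocyte and dendritic cell markers had a median of -0.06 and summed to between 25201 and 28962 in the knockouts and to between 25195 and 27137 in the controls. Vcam1 is also made by endothelium and stroma, and Mrc1 by some endothelium. The 8 endothelial markers had a median of -0.17, and 5 of them had mean intensities under 100. The 8 stromal markers had a median of 0.12, and likewise 5 lay under 100. The part of each of these cell types in the levels of the 9 genes was not tested.

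**Figure D4:**
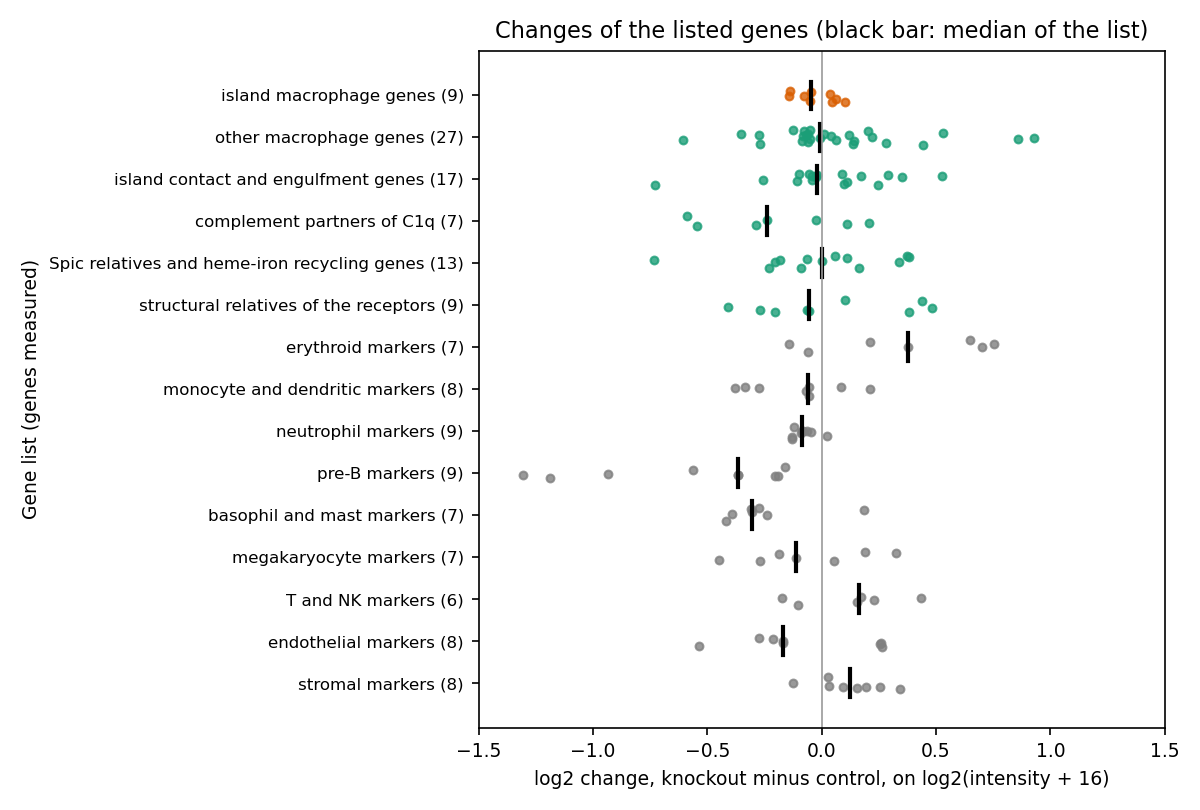
Log2 change (knockout minus control) of the brightest probe set of each listed gene (points) with the median of each list (black bars), the 9 macrophage genes in orange, other genes of the pathway in green and markers of erythroid and other cells in grey. The 9 genes lie between -0.14 and 0.10, while the pre-B cell markers reach -1.31 and other macrophage genes 0.93.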

How the data were processed

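The authors deposited 1 table of intensity values on a linear scale, 1 column per mouse. Total RNA was taken with Trizol and labelled with biotin as cRNA, per the labels' protocols. How probes were summarised, background-corrected and scaled: not given in the sources used here. Between 1.73% and 1.95% of values per array were 1 or less, none of them in the 14 probe sets. Array annotation gave 1 symbol to 34945 probe sets. Values became log2(intensity + 16) and were not normalized again, because array medians and interquartile ranges differed by at most 0.057 and 0.070. The test was limma's moderated test (version 3.58.1, R 4.3.3) over all probe sets, two-sided, with Benjamini-Hochberg adjustment at 0.05. The fit was tested on simulated data, with changes placed only in probe sets above the median level. It found 60% and 64% of log2 changes of 1 and -1, and 88% and 98% of those of 2 and -2. Of its calls there, 3.73% were false. The number of mice limits the precision. For each gene the brightest of its probe sets with 1 symbol was used, and errors are SDs over mice or SEs from the fit. The members and lists were chosen with earlier results of these data known. Named were all members, per list genes of smallest p or highest intensity (Siglec1 and the likeness values of list genes were added after their values were seen), and the 6 genes most like the members. Same-numbered mice did not pair (r between -0.08 and 0.01).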

Additional observations from a re-analysis of the deposited data

How the results depend on the processing

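None of the 14 probe sets passed under any of the 16 alternatives fitted to them, which were quantile, median and cyclic loess normalization, pseudocounts of 1 and 64, both filters on dim probe sets, array weights, robust variance moderation along an intensity trend, the replicate number as a block, and leaving out each mouse. The smallest adjusted p of a gene's brightest probe set was 0.469, averages of a gene's probe sets included. Signs near 0 did turn: Vcam1 had a log2 change of -0.0032 and C1qa one of -0.025 after quantile normalization, C1qa one of -0.0037 after cyclic loess, and when a gene's probe sets were averaged Vcam1 had one of -0.058 and C1qb one of 0.024, while Spic moved to -0.20, against -0.05 by its brightest probe set, the largest change in size of any of the 9 genes with all mice kept. Leaving out 1 mouse gave log2 changes from -0.027 to 0.20 for Adgre1, 0.0051 to 0.13 for Vcam1, -0.33 to -0.02 for Cd163, -0.092 to 0.15 for Mrc1, -0.057 to 0.16 for C1qa, -0.24 to -0.0014 for C1qb, -0.19 to 0.040 for C1qc, -0.25 to 0.10 for Cd5l and -0.25 to 0.061 for Spic, and medians of the 9 genes from -0.14 to 0.09. The cause was not tested. The count over all 45037 probe sets was 38 with a pseudocount of 1, 558 with 64, 1445 with the trend, 14 with the replicate block and 27 to 41 without 1 mouse, against 66. In the brightest 50% it was 839 of 22519. The other genes of the pathway were lists of 27, 17, 7, 13 and 9 measured genes. Of these together 2 passed with a pseudocount of 64, 3 in the brightest 50% and 9 with the trend, and of the 69 markers 3, 3 and 7. Listed genes too dim for the brightest 50% were not in that fit. The replicate block changed no other call. Same-numbered mice share only a number.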

Other observations

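Structural relatives of the receptors were measured by 9 genes, none of which passed (limma). At an unadjusted p under 0.05, 2 were higher and none lower, beside 8.2% and 4.54% of all genes. Adgre4, the closest relative of Adgre1 in the list and a receptor of mouse myeloid cells, had 968, 1073 and 1019 in the knockout mice, against 706, 959 and 617 in the control mice. Every knockout mouse lay above every control mouse, unlike for Adgre1, and the log2 change was 0.44 ± 0.17 (SE, adjusted p = 0.385). The difference between the changes of these genes was not tested. Ly75, the lectin receptor DEC-205 of the family of Mrc1, had 171, 149.6 and 175 in the knockout mice, against 104, 140.3 and 127 in the control mice, a log2 change of 0.38 ± 0.13 (adjusted p = 0.340). Icam1, an adhesion molecule related to Vcam1, had 209, 218 and 217 in the knockout mice, against 216, 252 and 205.5 in the control mice, with overlapping groups.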
